A study of Homo sapiens with 9 samples.

Results

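The genes described here are the TEAD transcription factors (TEAD1, TEAD2, TEAD3 and TEAD4), the vestigial-like cofactors VGLL1, VGLL3 and VGLL4, and the coactivators YAP1 and WWTR1, whose product is TAZ. All probes annotated to these 9 genes, of 20046 genes on the arrays, were taken by gene symbol, which gave 12 of 47231 probes. The samples came from the human gastric cancer cell line MKN45 and were measured on 9 single-colour Illumina bead arrays in 3 groups of 3. The groups were cells that received a vector for YAP-S127A, cells that received the control vector, and mock cells. YAP-S127A is a form of YAP1 in which a serine that the Hippo kinases phosphorylate is replaced by alanine. The labels give no time point, promoter, clone or means of delivery, and they do not say whether replicate arrays stem from different cultures. The p-values therefore reflect only how far these samples scatter, and that scatter may be technical.

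TEAD proteins bind DNA but activate transcription poorly by themselves, and YAP and TAZ supply the activation when they bind to a TEAD in the nucleus. The Hippo kinases phosphorylate YAP and TAZ and hold them in the cytoplasm, and the serine replaced in YAP-S127A is one of the sites they use. VGLL proteins bind to an overlapping surface of TEADs, so that VGLL4 competes with YAP and has been described as a tumour suppressor in the stomach, while VGLL1 can form an activating complex with TEADs of its own.

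Of the 12 probes, those for VGLL1 and 1 of the 3 for TEAD4 were higher in YAP-S127A cells than in both controls, and no other member changed detectably. The VGLL1 probe stood 3.39-fold above vector and 3.73-fold above mock, and the brightest TEAD4 probe 1.49-fold and 1.45-fold. The promoter of VGLL1 is shown because it is the member that moved most. It comes from RefSeq (GRCh38.p14, chrX:136531965-136532264, plus strand) and runs from 250 bases before the gene's start to 50 bases after it. Capitals mark CATTCC, the reverse complement of the TEAD binding motif GGAATG.
VGLL1 promoter: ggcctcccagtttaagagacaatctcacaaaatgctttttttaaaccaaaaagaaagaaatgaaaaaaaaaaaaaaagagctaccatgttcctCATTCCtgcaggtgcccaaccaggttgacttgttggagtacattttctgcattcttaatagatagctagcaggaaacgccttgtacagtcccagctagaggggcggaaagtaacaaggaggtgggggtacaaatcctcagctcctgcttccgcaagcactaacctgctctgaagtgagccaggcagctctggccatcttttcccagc

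This match begins 157 bases upstream of the start. Both orientations of GGAATG were searched, and 14.0% of the 35116 promoters of this length in the RefSeq table hold at least 1. The table held 13 promoters for 7 of the 9 genes, TEAD1 and TEAD4 not among them, and 2 of the 13 held the motif, that of VGLL1 and that of YAP1. The AP-1 motif TGANTCA, searched likewise on both strands, was in 0 of the 13 and in 7.71% of all promoters. The letters describe these windows and do not show that a factor binds there.

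The arrays were of similar brightness, with median probe signals of 107 to 128 intensity units on YAP-S127A arrays, 109 to 132 on vector arrays and 129 to 136 on mock arrays, and with the lowest probes at 70.6 to 89.2, so many probes lay near background. On the first principal component of the probes tested (28.4% of the variance) the YAP-S127A arrays scored 19.9 to 22.3 and the 6 control arrays −21.8 to −5.29. Mock array 1 stood apart on the second component (15.2%), at 25.6 where the other 8 arrays ran from −14.0 to 5.67. Of 13 gastric epithelial markers with a probe 12 lay above the median of all probes, CDH1, EPCAM and KRT19 among them, against 0 of 6 endothelial, 5 of 10 fibroblast and 4 of 7 leukocyte markers. Of the 12 epithelial markers tested, 2 rose against both controls, the keratins KRT8 (0.85 against vector, log2) and KRT18 (1.54), and 4 fell, the tight junction gene CLDN18 (−0.87), the trefoil gene TFF1 (−0.90), the cadherin CDH17 (−0.44) and the galectin LGALS4 (−0.85). Of all genes, 1.53% were higher and 1.37% lower than in vector, and 1.18% were higher than in both controls. The epithelial markers summed to 68070 to 71980 normalized intensity units on YAP-S127A arrays, against 64550 to 66710 on vector and 57830 to 65080 on mock arrays. Bright genes weigh most in such sums, and KRT8 had a mean of 14.15 in YAP-S127A against 13.30 in vector arrays (log2). The median difference of the 12 tested markers was −0.29 from vector and −0.17 from mock, so the higher sums do not show a rise of the list. The leukocyte markers summed to 2928 to 2982 normalized intensity units on YAP-S127A arrays, against 4042 to 4295 on vector and 3661 to 4179 on mock arrays. LYZ was the 1 called of 6 tested, lower than in both controls, with a difference of −0.77 from vector, where 1.37% of all genes were lower. LYZ, the brightest of them, stood at 10.74 in YAP-S127A, 11.51 in vector and 11.34 in mock arrays (log2). CD68, the next brightest, stood at 9.75, 9.70 and 9.72. The fibroblast markers summed to 1563 to 1645 on YAP-S127A arrays, against 1505 to 1564 on vector and 1328 to 1572 on mock arrays. The part of these markers in the results was not tested. All samples were of the MKN45 line, so the name of a list does not show that cells of that type were present. In such bulk RNA fewer cells with a transcript and less of it per cell cannot be told apart.

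Levels below are background-corrected, quantile-normalized log2 intensities, and a difference is the mean of the first group minus that of the second, with the standard error (SE) of limma. Probes were tested when their mean over the 9 arrays exceeded the lower quartile of all probes, a level of 6.18, and a probe was called when its adjusted p, over the 35423 probes tested, was under 0.05. Of the 12 probes 9 were tested. The other 3, the YAP1 and VGLL3 probes and 1 of TEAD1, lay under that level. A probe's brightness depends on its sequence, so the tests compare groups, by probe or by the mean of a gene's probes, and never 1 gene with another. Differences between probes within an array and sums over markers are descriptions with no test.

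YAP1, the gene that the construct expresses in mutant form, had a single probe, ILMN_1709479, with raw signals of 117, 111 and 93.1 intensity units on YAP-S127A arrays, 111, 90.5 and 115 on vector arrays and 113, 108 and 122 on mock arrays. These signals overlapped between the groups and had a mean level at the 12.3 percentile of the whole array. Its normalized level was 6.12 ± 0.06 (SD, n = 3) in YAP-S127A, 6.04 ± 0.09 in vector and 6.08 ± 0.09 in mock arrays. The difference from vector, 0.08, had a 95% interval of −0.14 to 0.29. The probe is annotated to the transcript NM_006106, and whether its sequence lies within the construct is not known here, so it checks neither the labels nor the level of the expressed protein.

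WWTR1, which encodes the YAP paralogue TAZ, was measured above the filter, with levels of 6.99, 7.06 and 7.36 on YAP-S127A arrays, 7.11, 7.18 and 7.14 on vector arrays and 7.05, 6.87 and 7.05 on mock arrays. The YAP-S127A arrays spanned all of the vector values. They differed from vector by −0.01 ± 0.11 (SE; limma, adjusted p = 0.988, 95% interval −0.24 to 0.22) and from mock by 0.14 ± 0.11 (adjusted p = 0.663). No difference in WWTR1 was detectable beyond the spread between arrays.

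**Figure D1:**
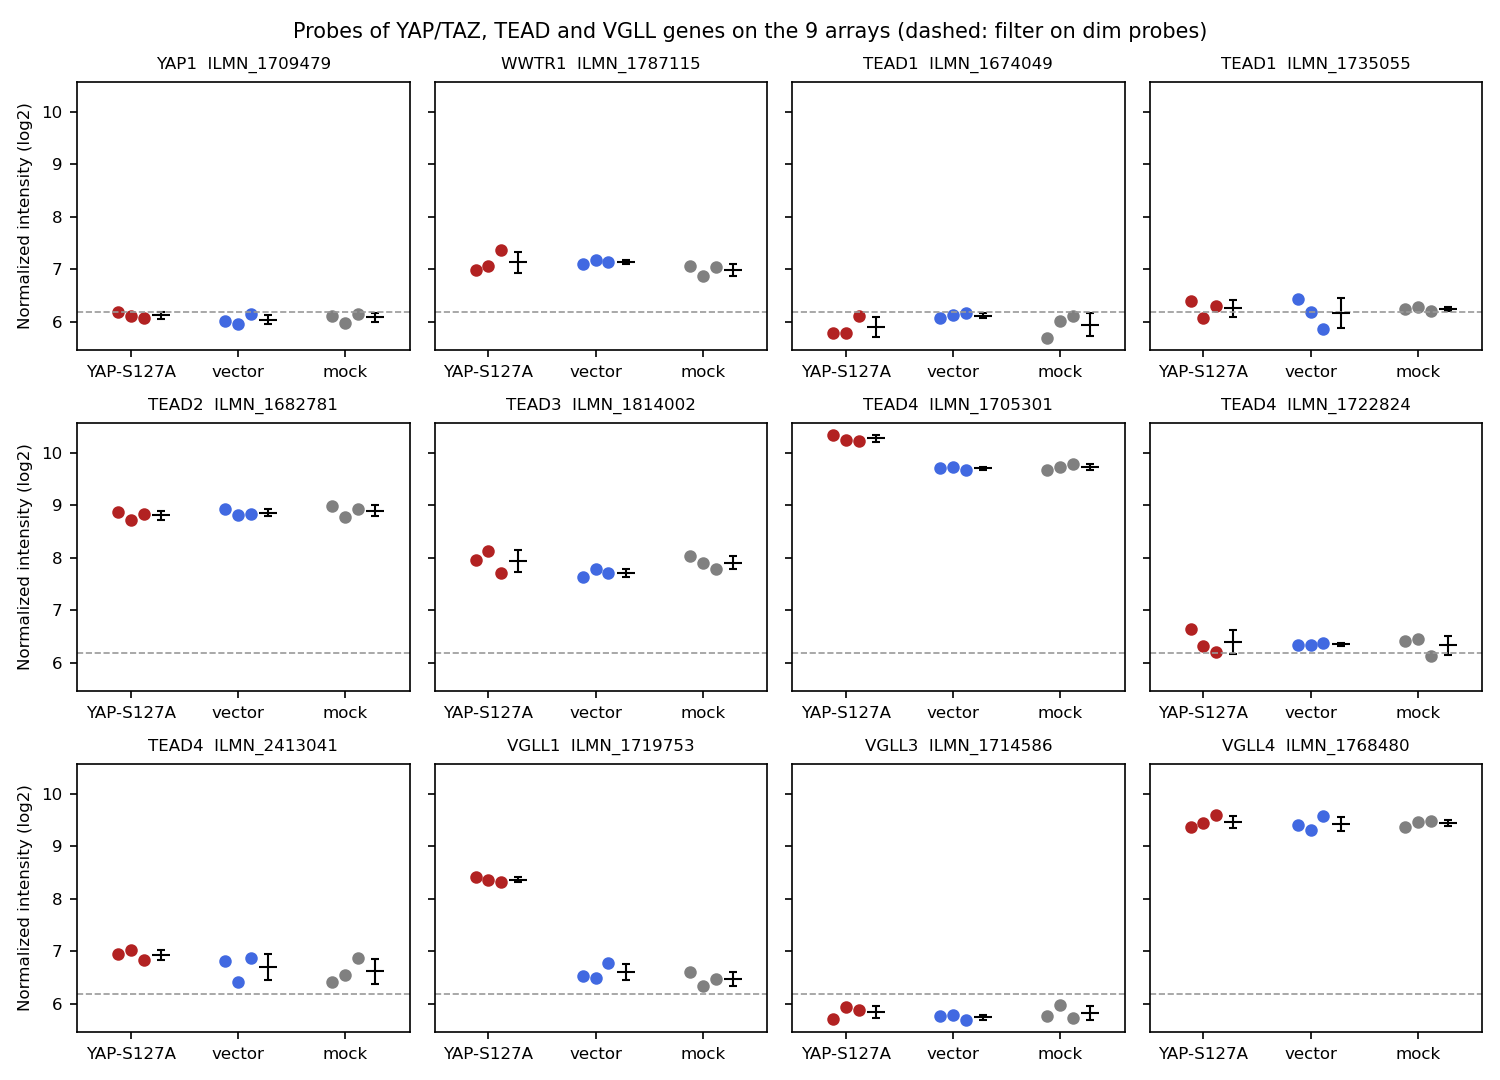
Normalized log2 intensity of each of the 12 probes on the 9 arrays, 1 panel per probe, with YAP-S127A, vector and mock from left to right, points for arrays, and a bar with whiskers for the mean and SD of 3 arrays. VGLL1 (8.32 to 8.41 in YAP-S127A) and TEAD4 probe ILMN_1705301 (10.23 to 10.35) lie apart from all 6 control arrays, and the dashed line marks the filter at 6.18.

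Among the TEAD factors, TEAD4 was the one with a called probe. Its brightest probe, ILMN_1705301, had raw signals of 1323, 1285 and 1029 intensity units on YAP-S127A arrays, against 1032, 741 and 857 on vector arrays and 822, 1013 and 996 on mock arrays. The raw signal of YAP-S127A array 3 lay just below that of vector array 1, and these arrays were among the dimmest and the brightest overall. After normalization the levels were 10.35, 10.25 and 10.23 on YAP-S127A arrays, against 9.70, 9.74 and 9.67 on vector arrays and 9.68, 9.74 and 9.79 on mock arrays. Every YAP-S127A array then lay above every control array. TEAD4 rose by 0.57 ± 0.10 against vector (95% interval 0.36 to 0.78; limma, adjusted p = 0.00134) and by 0.54 ± 0.10 against mock (0.33 to 0.75; adjusted p = 0.00245).

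The other TEAD4 probes did not pass. ILMN_2413041, annotated to the transcript NM_003213 where the brightest probe is annotated to NM_201443, had levels of 6.94, 7.02 and 6.84 on YAP-S127A arrays, 6.81, 6.41 and 6.88 on vector arrays and 6.42, 6.56 and 6.88 on mock arrays. The groups overlapped, with differences of 0.24 ± 0.13 from vector (limma, adjusted p = 0.485) and 0.32 ± 0.13 from mock (adjusted p = 0.258). ILMN_1722824, annotated to NM_201443 like the brightest probe, differed by 0.04 ± 0.12 and 0.06 ± 0.12 and lay close to the filter, with a mean of 6.39 in YAP-S127A and 6.35 in vector arrays. Whether background left after correction, or the offset of 50 used in it, compressed the differences of these dimmer probes was not tested. The VGLL1 probe, with a mean of 6.61 in vector arrays, differed from vector by 1.76, but its mean in YAP-S127A arrays was 8.37. It therefore does not show how probes that stay dim in all groups behave. The 3 TEAD4 probes do not settle whether all TEAD4 transcripts moved. With the mean of the 3 probes in place of the brightest, TEAD4 was not called (0.28 ± 0.09 against vector, limma, adjusted p = 0.113, and 0.31 ± 0.09 against mock, adjusted p = 0.0752). When the arrays were scaled to equal medians and not quantile normalized, its brightest probe was called against vector but not against mock (0.48, adjusted p = 0.0501).

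TEAD1, TEAD2 and TEAD3 showed no called difference. TEAD2 had levels of 8.88, 8.72 and 8.83 on YAP-S127A arrays, 8.93, 8.82 and 8.83 on vector arrays and 8.98, 8.78 and 8.93 on mock arrays. The 3 groups overlapped and the difference from vector was −0.05 ± 0.11 (95% interval −0.27 to 0.17). TEAD3 had 7.95, 8.14 and 7.72 on YAP-S127A arrays, 7.63, 7.79 and 7.71 on vector arrays and 8.03, 7.91 and 7.79 on mock arrays. YAP-S127A arrays 1 and 2 lay above the vector arrays and array 3 did not, and the difference of 0.23 ± 0.12 from vector missed the threshold (limma, adjusted p = 0.426). Against mock the TEAD3 difference was 0.03 ± 0.12.

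Of the 2 TEAD1 probes, ILMN_1735055 lay just above the filter, at 6.25 ± 0.16 (SD, n = 3) in YAP-S127A, 6.16 ± 0.28 in vector and 6.25 ± 0.04 in mock arrays. ILMN_1674049 lay under it, at 5.90 ± 0.19, 6.12 ± 0.04 and 5.95 ± 0.22 in the same groups. By mean level the first lay at the 31.5 percentile of all probes and the second at 5.71, well below the filter. No difference in TEAD1 was detectable on these arrays.

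Levels within an array were set side by side after the values of these genes were seen, so they are descriptions with no test. The brightest TEAD4 probe minus the TEAD2 probe was 1.40 to 1.54 on YAP-S127A arrays, against 0.77 to 0.92 on vector arrays and 0.70 to 0.96 on mock arrays. Minus the TEAD3 probe it was 2.11 to 2.51 on YAP-S127A arrays, 1.95 to 2.08 on vector arrays and 1.65 to 2.00 on mock arrays. In both cases the YAP-S127A arrays lay above all 6 control arrays, for TEAD3 by a narrow margin. Both differences contain the rise of the TEAD4 probe given above, so this separation is not a further result. Among the TEAD4 probes, the brightest minus ILMN_1722824 was 3.70 to 4.03 on YAP-S127A arrays, 3.29 to 3.40 on vector arrays and 3.27 to 3.66 on mock arrays, with no overlap. Minus ILMN_2413041 it was 3.23 to 3.40 on YAP-S127A arrays, 2.79 to 3.32 on vector arrays and 2.92 to 3.26 on mock arrays, and here the groups overlapped. Whether the TEAD4 probes respond differently from each other was not tested.

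VGLL1 showed the largest difference of the 12 probes. Its single probe, ILMN_1719753, had raw signals of 373, 371 and 298 intensity units on YAP-S127A arrays, against 142, 114 and 156 on vector arrays and 142, 127.1 and 140 on mock arrays. The lowest YAP-S127A array was thus well above the highest control, before any normalization. Normalized levels were 8.41, 8.37 and 8.32 on YAP-S127A arrays, against 6.54, 6.50 and 6.78 on vector arrays and 6.60, 6.34 and 6.47 on mock arrays. VGLL1 rose by 1.76 ± 0.11 against vector (95% interval 1.53 to 1.99; limma, adjusted p = 3.12e-11) and by 1.90 ± 0.11 against mock (1.67 to 2.13; adjusted p = 6.12e-12).

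The control arrays alone also placed VGLL1 above the filter, with means of 6.61 in vector and 6.47 in mock arrays, but close to it. The size of its change depended on the processing: the deposited log2 values gave 1.21 against vector and 1.29 against mock, or 2.32-fold and 2.45-fold. Which steps the authors applied to those values is not known here, so the smaller size cannot be assigned to 1 step. VGLL1 stayed called in all 22 alternative settings run in each comparison.

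VGLL4, the competitor of YAP for TEADs, was well measured and showed no detectable difference. Its levels were 9.37, 9.44 and 9.59 on YAP-S127A arrays, 9.41, 9.31 and 9.57 on vector arrays and 9.37, 9.46 and 9.48 on mock arrays. The groups overlapped, and the differences were 0.04 ± 0.11 from vector (95% interval −0.18 to 0.26; limma, adjusted p = 0.937) and 0.03 ± 0.11 from mock (−0.19 to 0.25; adjusted p = 0.954). VGLL3, a cofactor best known from mesenchymal cells, had a probe at the 0.0889 percentile of all probes, with raw signals of 86.8 to 103 on YAP-S127A, 84.1 to 99.4 on vector and 96.7 to 107 on mock arrays. These are near the lowest signals of each array, so no VGLL3 level could be given.

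The within-array level of VGLL1 minus that of VGLL4, likewise a description, was −1.27 to −0.95 on YAP-S127A arrays, against −2.87 to −2.79 on vector arrays and −3.12 to −2.77 on mock arrays.

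**Figure D2:**
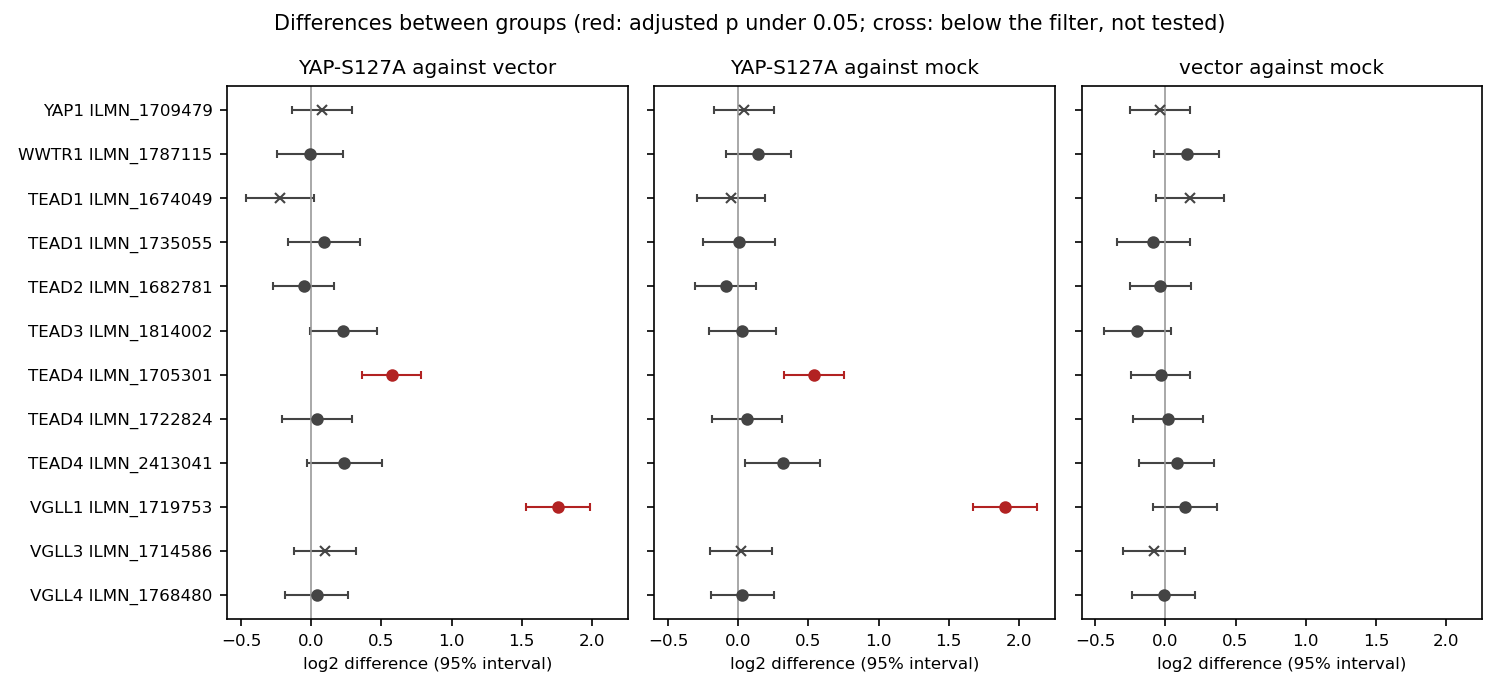
Differences in log2 intensity with 95% intervals from limma for the 12 probes, with YAP-S127A against vector, YAP-S127A against mock and vector against mock from left to right. VGLL1 (1.76 and 1.90) and TEAD4 ILMN_1705301 (0.57 and 0.54) are called in both YAP-S127A comparisons, and crosses mark the 3 probes under the filter, which were not tested.

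Counted over the 9 probes tested, 2 were higher and 0 lower in YAP-S127A than in vector, where 1.14% of all tested probes were higher and 0.963% lower. Against mock the same 2 were higher and 0 lower, where the background was 1.39% and 1.16%. Both probes were called against both controls, as were 0.847% of all probes upward, and both had every YAP-S127A array beyond all 6 control arrays, as had 8.38% of probes in either direction. Both comparisons use the same YAP-S127A arrays, so they are not independent. Of all probes called, 54.2% were higher against vector and 54.5% against mock, but 38.4% and 32.4% when arrays were scaled to equal medians, and VGLL1 and TEAD4 had higher means in YAP-S127A under both scalings, TEAD4 without a call against mock under equal medians.

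Vector and mock cells did not differ detectably in any of these genes. In vector against mock, 0 of 9 probes were called by limma, 0 had an unadjusted p under 0.05, and 0.00847% of all probes were called. WWTR1 was 0.15 ± 0.11 higher and TEAD3 0.20 ± 0.12 lower in vector than in mock arrays, and both had groups that did not overlap, as had 10.2% of all probes.

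**Figure D3:**
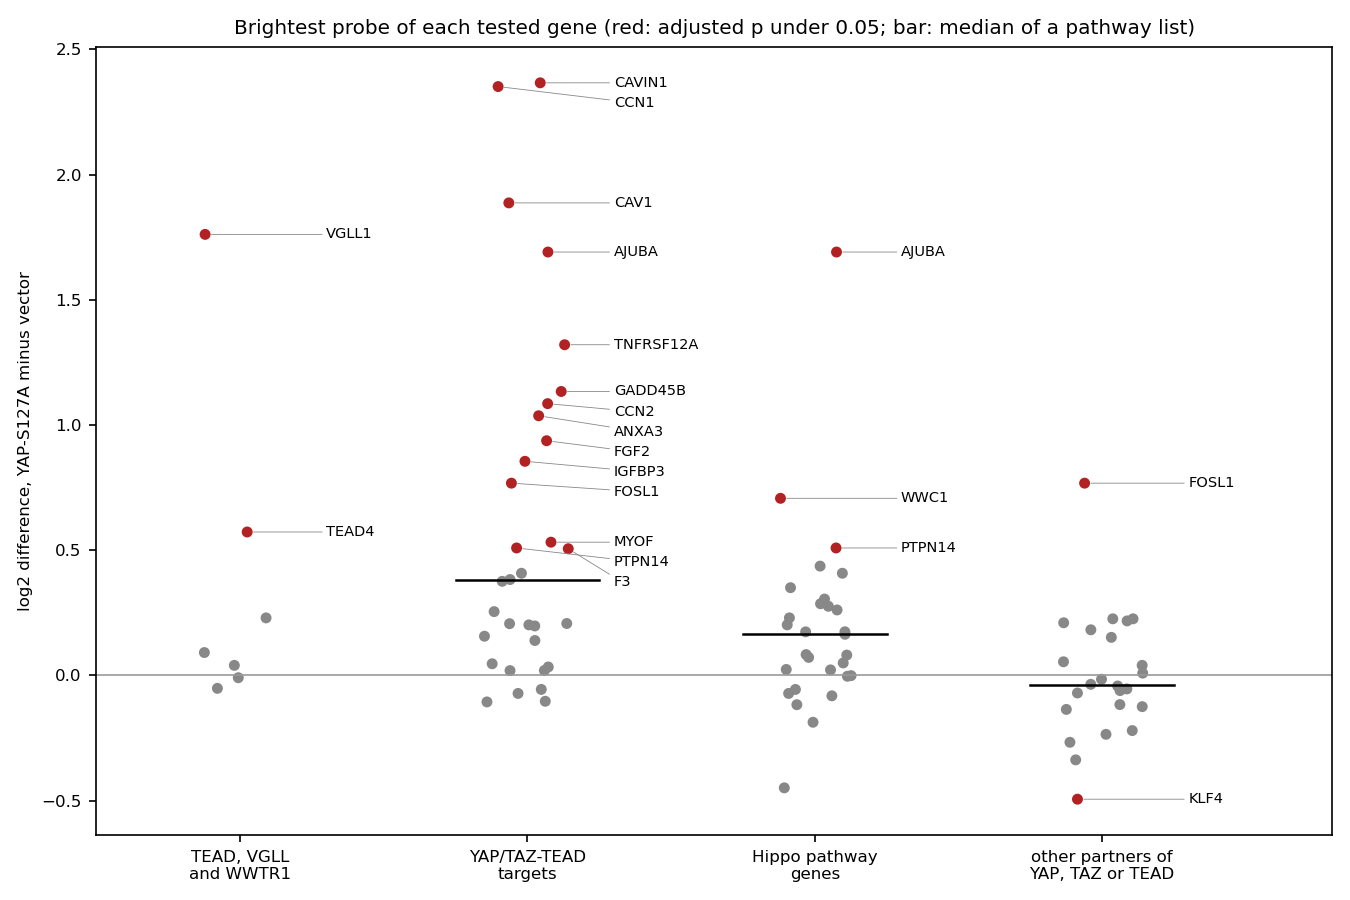
Difference in log2 intensity, YAP-S127A minus vector, of the brightest probe of each tested gene among the members and in 3 pathway lists, with called genes in red and named, and a bar at the median of each pathway list. TEAD4 and VGLL1 are the called members. The target list has its median at 0.38 and the other 2 lists at 0.16 and −0.04.

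Genes around the TEAD complexes were read from lists, each gene by its brightest probe. Of 32 tested targets reported for YAP, TAZ and TEAD, 14 were higher than in vector, 0 were lower and 18 missed the threshold, where 1.53% of all 16180 genes were higher and 1.37% lower. Against mock 15 rose and 0 fell (background 1.84% and 1.66%), and 13 rose against both, where 1.18% of all genes did. The median difference from vector was 0.38 in this list and −0.01 over all genes. Some members entered the list with their rise in these data known, so the count is no independent evidence of its direction.

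Members that rose against both controls covered several roles, in each case called by limma. TNFRSF12A, the receptor of the cytokine TWEAK, rose by 1.32 ± 0.12 against vector and 1.30 against mock. ANXA3, an annexin, rose by 1.04 and 1.05, FGF2, a fibroblast growth factor, by 0.94 and 0.79, and FOSL1, an AP-1 subunit, by 0.77 and 0.92. The matricellular genes CCN1 (2.35 and 2.66) and CCN2 (1.09 and 1.15), the caveolar genes CAVIN1 (2.37 and 2.15) and CAV1 (1.89 and 1.78), and the scaffold gene AJUBA (1.69 and 1.47) rose as well. So did GADD45B (1.13 and 1.01), IGFBP3 (0.85 and 0.65), MYOF (0.53 and 0.67) and tissue factor F3 (0.51 and 0.53). Against vector the call of F3 ended without vector arrays 1 or 3 or YAP-S127A arrays 2 or 3 (adjusted p up to 0.0686), and that of MYOF without vector array 2 or YAP-S127A arrays 2 or 3 (up to 0.122) or with equal medians (0.0545).

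Upstream of YAP, 3 of 29 tested Hippo pathway genes rose against vector and 0 fell, beside 1.53% and 1.37% of all genes, with a median difference of 0.16. AJUBA and PTPN14, which are 2 of these 3, are also in the target list and counted there. AJUBA and WWC1, a scaffold that promotes LATS activity (0.71 ± 0.11 against vector and 0.84 against mock), rose against both controls, and PTPN14, a phosphatase that binds YAP (0.51), rose against vector, a call that ended with equal medians (adjusted p = 0.231) and without vector arrays 2 or 3 or any 1 YAP-S127A array (up to 0.264). The list showed 1 call of vector against mock, the upstream kinase TAOK1, which was 0.85 ± 0.13 higher in vector (limma, adjusted p = 0.0125) and is named after its values were seen. That call ended without mock array 2 or vector arrays 2 or 3 (adjusted p up to 0.323) and in the deposited log2 values (0.111). Other partners of YAP, TAZ or TEAD, such as RUNX and SMAD factors and coactivators, had a median of −0.04 over 24 tested genes, with 1 riser, FOSL1, which is also counted among the targets, and 1 fall, KLF4, a differentiation factor, which changed by −0.49 ± 0.12 against vector and by −0.37 (adjusted p = 0.101) against mock. That is 1 gene in each direction, beside 1.53% higher and 1.37% lower of all genes. The KLF4 call ended without vector arrays 2 or 3 or YAP-S127A arrays 1 or 2 (adjusted p up to 0.125).

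The 5 genes nearest in pattern to each called member were sought among the 16180 genes, by the root mean square difference over the 9 arrays of log2 deviations from the vector mean. Such a search returns the nearest genes for any member. Their short distances and like differences follow from it and are descriptions only. The 5 nearest to VGLL1 were KLK6 (0.18), CAV1 (0.21), CCDC9B (0.23), PRSS23 (0.24) and C4BPB (0.24), against a median distance of 1.04 over all genes. They differed from vector by 1.45 to 1.89, and a further KLK6 probe differed by −0.01. The 5 nearest to TEAD4 were CLTB (0.08), PVR (0.08), HS6ST2 (0.08), MOSPD1 (0.08) and RGCC (0.09), against a median distance of 0.36. Their differences from vector were 0.51 to 0.60, and a further PVR probe differed by 0.01. With equal medians CLTB, PVR and HS6ST2 were not called against vector (limma, adjusted p = 0.0706, 0.0955 and 0.104). Against mock, the calls of RGCC and CLTB ended without mock array 1 or YAP-S127A arrays 1 or 2 (limma, adjusted p up to 0.0767 and 0.0921). That of PVR ended without any 1 mock array or YAP-S127A arrays 1 or 2 (up to 0.191). Against vector, the call of CLTB ended without YAP-S127A array 2 (0.0647) and that of PVR without YAP-S127A array 1 (0.0515).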

How the data were processed

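RNA of 9 MKN45 samples was hybridised, per the labels, as biotin-labelled cRNA. The deposited signal table holds probe intensity values on a linear scale with no visible background subtraction. The deposited series matrix holds log2 values normalized by the authors, with identical array medians of 6.92. Those medians do not show which method was used. BeadStudio is named in the submitters' processing notes, with settings not given in the sources used here. Signals were corrected with normexp (offset 50), quantile normalized and put on the log2 scale. Probes above the lower quartile (35423 of 47231) entered 1 limma 3.58.1 fit (R 4.3.3) of all 9 arrays with a mean per group, 6 residual and 19.2 prior degrees of freedom, with Benjamini-Hochberg adjustment over all probes tested. The fit was tested on simulated data. Genes of 30113 probes came from the platform table, and symbols were updated through GRCh38.p14 gene IDs for 30074. Where a gene had several probes, the one of highest mean stood for it.

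Named genes were all member probes, list members called against both controls (otherwise up to 4 called against vector), and the 5 genes nearest in pattern to each member called against both. Members and lists were chosen with earlier results of these data known. The alternatives were no background correction, cyclic loess, equal medians, values from the series matrix, other filters, arrays of the compared groups, other moderation, array weights, a replicate block, thresholds of 0.01 and 1.5-fold, the mean or only the brightest of a gene's probes, and leaving out each array. The number of arrays limits the precision.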

Additional observations from a re-analysis of the deposited data

How the results depend on the processing

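The 2 member probes called against vector, against mock and against both controls, and the 2 genes they represent, fell to 1 in a few settings. A threshold of at least 1.5-fold left 1 in each of these counts, VGLL1. Scaling to equal medians left 1 against mock, against both controls and at gene level. Averaging a gene's probes left 1 gene. In these settings TEAD4 was the one lost, with 0.57 against vector and 0.54 against mock under the 1.5-fold threshold and 0.48 against mock after scaling to equal medians. Leaving out each array in turn kept the counts at 2, with TEAD4 at 0.54 to 0.60 against vector (largest adjusted p 0.0137) and 0.50 to 0.57 against mock (0.0237), and VGLL1 at 1.71 to 1.85 and 1.83 to 1.97. Without mock array 1, TEAD4 differed from mock by 0.51 and VGLL1 by 1.97. No member was called for vector against mock in any setting, and none was called lower. With no filter on dim probes the 3 untested probes were not called either (adjusted p of 0.514 or more in each comparison). In counts of list genes, added after the data were seen, the targets higher were 11 to 16 against vector and 13 to 15 against mock, and the Hippo pathway genes higher than in vector reached 5 with array weights, while 1 was lower with equal medians, with only the compared arrays and without mock array 1, against 0 here. Leaving out YAP-S127A array 2 lowered all probes called to 392, and leaving out vector array 2 or 3 to 430 or 416, against 745 here, and against mock to 488 without mock array 1 and 497 and 438 without YAP-S127A arrays 1 and 2, against 901 here. The threshold of 0.01 left 381 and 416 in these comparisons and that of 1.5-fold 308 and 329. Between vector and mock they were 103 without mock array 3 and 1 without mock array 2, vector array 2 or vector array 3, without background correction and in the deposited log2 values, against 3 here. Deviations of arrays with the same number correlated by −0.12 to 0.07, so no strong effect shared by equal numbers was visible. Whether equal numbers share a culture or preparation cannot be told from this. With replicate number as a block 2 member probes were called against each control and 0 between vector and mock. Background limits YAP1, VGLL3 and TEAD1, whose levels cannot be read here.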
